A study of Mus musculus with 6 samples.

Results

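The Abca genes described here are 8 of the 16 genes of the ABCA subfamily that had a probe on a mouse Illumina whole-genome bead array, out of 19057 genes measured in all. They are Abca1, Abca2, Abca3, Abca5, Abca7, Abca8a, Abca8b and Abca9. These 8 were chosen by name with their values in the present comparison in view, so their differences between the tissues are given as a description. They were part of the fit over all genes, and how many passed its threshold is stated without p-values and supports nothing. Each gene is read at its brightest probe, the one with the highest mean over the 6 arrays, with its other probes beside it, and no gene was left out for a low signal.

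RNA came from embryos of the outbred CD-1 stock at day 13.5. Of the 6 arrays 3 are titled tooth germ (of the lower molar, per the series title) and 3 are titled oral tissue. Each pools tissue of several mice, and both tissues of 1 number come from 1 litter. No allele or agent is given for either tissue. The labels contradict each other: titles and descriptions name 1 set of 3 libraries as tooth germ, and the source name and tissue fields name the other set. The libraries are called here by title, and every sign given here turns if those other fields hold the truth.

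ABCA proteins are large membrane pumps of the ATP-binding cassette type. Each chain carries a pair of membrane-spanning domains and a pair of ATP-binding domains, and most of the well-studied members move cholesterol or phospholipids from one membrane leaflet to the other, out of the cell or into lysosome-related vesicles. Abca1 loads cholesterol onto apolipoprotein A-I, and Abca3 fills the lamellar bodies of lung with surfactant lipid. Abca8a, Abca8b, Abca9, Abca6 and Abca5 form a subgroup of related genes that lie next to each other in the genome and whose cargo is less well known.

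In the libraries titled tooth germ, Abca8a and Abca3 were both about 1.53-fold lower than in those titled oral tissue, and Abca9 and Abca8b were lower by smaller amounts. Folds and log2 differences take the deposited scale as plain log2. The sources used here do not say whether it is that or a variance-stabilised scale, on which the folds would not hold. Abca1, Abca2, Abca5 and Abca7 had overlapping groups. All 8 brightest probes had a negative mean difference, the median of the 8 being -0.17 on the log2 scale, beside 0.0026 over all 19057 genes. In the limma fit over all genes, 4 of the 8 members were past an adjusted p of 0.05 and lower, and 0 were higher. The share of all genes past that threshold in either direction was 5.81%, with 3.42% lower and 2.39% higher. With the litter as a block it was 8.88%, with 5.02% lower and 3.86% higher, and the members past the threshold were the same 4. The members were chosen on this contrast, and nothing is read from their count.

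The promoters of the 4 members that were lower are shown with that of Abca5, because neighbours on chromosome 11 differ widely in their CpG content. In the RefSeq gene table of GRCm38.p6, Abca8b, Abca8a, Abca9, Abca6 and Abca5 follow each other in this order on chromosome 11 with no other protein-coding gene between them, while Abca1, Abca2, Abca3 and Abca7 lie on chromosomes 4, 2, 17 and 10. All 8 members had 1 window each in the RefSeq promoter table of that build. The stretches below are the 150 bases before the annotated start, 5′ to 3′ on the gene's own strand, with each CpG dinucleotide in capitals. Abca8b lies at chr11:109995846-109995995 (minus strand), Abca8a at chr11:110095938-110096087 (minus), Abca9 at chr11:110168154-110168303 (minus), Abca3 at chr17:24351873-24352022 (plus) and Abca5 at chr11:110337717-110337866 (minus).
Abca8b: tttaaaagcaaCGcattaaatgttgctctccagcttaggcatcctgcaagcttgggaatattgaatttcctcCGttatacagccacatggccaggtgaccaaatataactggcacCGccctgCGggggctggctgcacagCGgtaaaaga
Abca8a: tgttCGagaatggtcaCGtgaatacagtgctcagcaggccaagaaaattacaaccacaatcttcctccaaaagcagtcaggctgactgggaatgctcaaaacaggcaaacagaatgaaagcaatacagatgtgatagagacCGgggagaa
Abca9: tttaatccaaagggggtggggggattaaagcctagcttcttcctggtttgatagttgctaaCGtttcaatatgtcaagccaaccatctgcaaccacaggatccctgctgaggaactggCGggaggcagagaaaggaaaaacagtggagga
Abca3: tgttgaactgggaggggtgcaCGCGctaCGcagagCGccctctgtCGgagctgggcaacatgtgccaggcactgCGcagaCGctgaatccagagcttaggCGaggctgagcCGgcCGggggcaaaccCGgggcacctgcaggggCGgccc
Abca5: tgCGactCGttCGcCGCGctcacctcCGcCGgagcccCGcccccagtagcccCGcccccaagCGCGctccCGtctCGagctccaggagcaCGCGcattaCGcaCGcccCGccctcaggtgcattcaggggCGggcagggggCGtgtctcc

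The stretches hold 5 CpG in Abca8b, 3 in Abca8a and 2 in Abca9, against 12 in Abca3 and 20 in Abca5. Over the whole promoter window of 300 bases, which runs from 250 before to 50 after the start, Abca9, Abca8a and Abca8b had 2, 4 and 10 CpG, and Abca7, Abca1, Abca2, Abca3 and Abca5 had 19, 26, 26, 29 and 40. The median over 32851 windows of 27025 genes was 7, with quartiles of 3 and 20. Among the 8, the 3 windows poorest in CpG belong to members that were lower in titled tooth germ. So does that of Abca3, where 88.3% of all windows held as many CpG or fewer. Few CpG were also found in other ABCA genes that did not pass the threshold: Abca12, Abca13 and Abca16 had 6, 6 and 9. Abca15, Abca4, Abca17 and Abca14 had 14, 15, 21 and 22, and Abca6 had no window. A link between CpG content and the differences was not tested. The neighbour Abca5 has the window richest in CpG of the 8.

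**Figure D1:**
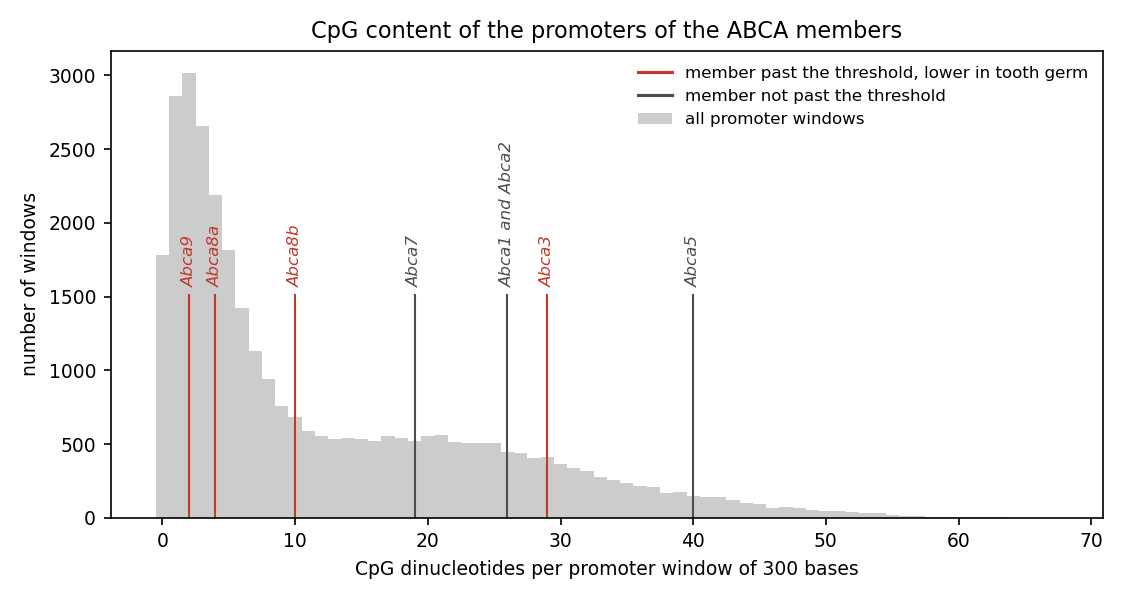
CpG dinucleotides per promoter window of 300 bases (x axis) against the number of windows (y axis, grey bars, all 32851 windows). Vertical lines mark the 8 members. Abca9, Abca8a and Abca8b sit at 2, 4 and 10 CpG, Abca3 at 29, and the other 4 between 19 and 40.

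Both strands of the windows were searched for short motifs. The GC box GGGCGG, which holds a CpG itself, was found in 6 of 8 members and in 35.7% of all windows. Abca8a and Abca9 lacked those letters. The E-box CACGTG, which also holds a CpG, was in the windows of Abca1, Abca8a and Abca8b and in 7.15% of all windows. TATAAA was found in Abca1 alone among the members (13.6% of all windows) and CCAAT in Abca7 alone (37.4%). These are matches of letters in a short window and no measure of binding.

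Of the 4 members on chromosome 11, Abca8a had the widest difference. Abca8a and Abca8b are the mouse pair that corresponds to the single human gene ABCA8, which has been linked to cholesterol efflux. Abca8a had log2-scale signals of 7.24, 7.22 and 7.01 in titled tooth germ and 7.76, 7.70 and 7.87 in titled oral tissue. The groups did not overlap, and all 3 tooth germ libraries lay well below every oral library. The means were 7.16 ± 0.13 and 7.77 ± 0.085 (SD, n = 3 each), a log2 difference of -0.62 with a standard error of 0.073. The difference within litter 3 was -0.85, wider than -0.52 and -0.48 in litters 1 and 2. Abca8a had 1 probe named for it alone, so it has no second reading here.

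Abca8b stood at 6.92, 6.95 and 6.93 in titled tooth germ and at 7.12, 7.09 and 7.18 in titled oral tissue. The groups did not overlap, although the tooth germ values lay just under the median of all probe values on the arrays, 7.01. The log2 difference was -0.19 (SE 0.036), and within litters it was -0.20, -0.14 and -0.24. Abca8b's 2 dimmer probes differed by -0.12 and -0.057. Each of the 3 probes was lower in tooth germ, by less the dimmer the probe.

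Abca9 read 7.18, 7.14 and 7.00 in titled tooth germ and 7.47, 7.33 and 7.27 in titled oral tissue, without overlap. Its log2 difference was -0.25 (SE 0.063), with -0.29, -0.19 and -0.27 in litters 1 to 3. Its other 3 probes did not give 1 answer. They differed by -0.026, -0.15 and 0.061 in order of brightness, so the dimmest ran the other way, also with no overlap between the groups, and the mean of all 4 probes differed by -0.091 and was not past the threshold. Abca9 was also not past the threshold without tooth germ library 1, 2 or 3 or without oral tissue library 1 or 2, where the difference was between -0.29 and -0.19.

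Abca5, a lysosomal and endosomal member, had signals of 7.09, 7.05 and 6.94 in titled tooth germ and 7.27, 7.09 and 7.15 in titled oral tissue. The groups just overlapped, since the highest tooth germ value was above the lowest oral value, and the sign was negative in all 3 litters (-0.17, -0.043 and -0.21). The log2 difference of -0.14 (SE 0.054) was not past the threshold, and a dimmer probe differed by -0.056. Abca6, which lies between Abca9 and Abca5, is no member and was read at 6.89, 6.97 and 6.99 in titled tooth germ and 6.87, 6.89 and 6.97 in titled oral tissue. That is a log2 difference of 0.038 (SE 0.038, limma adjusted p = 0.699), at a level below the median of all values.

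Abca3, the surfactant lipid pump, had signals of 9.43, 9.32 and 9.42 in titled tooth germ and 10.15, 9.83 and 10.04 in titled oral tissue. The groups were well apart. The means were 9.39 ± 0.064 and 10.01 ± 0.16 (SD, n = 3 each), with a log2 difference of -0.62 (SE 0.094) and of -0.72, -0.51 and -0.61 in litters 1 to 3. A second probe, also bright, read 8.38, 8.30 and 8.44 in titled tooth germ and 8.92, 8.72 and 8.75 in titled oral tissue. It did not overlap either and differed by -0.42 (SE 0.080 in a fit over all probes). The third probe, at a mean level near the median of all values, differed by -0.092.

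Abca1, Abca2 and Abca7 are the members best known from cholesterol export, myelin lipid and the uptake of cell debris. Abca1 read 6.85, 6.78 and 6.87 in titled tooth germ and 6.85, 6.86 and 6.82 in titled oral tissue, with a log2 difference of -0.0072 (SE 0.029). Its only probe was dim: 20.4% of all values on the arrays lay at or below its mean, so a difference in Abca1 may not have been detectable. Abca2, found mainly in lysosome-related vesicles of glia and neurons, read 7.31, 7.31 and 7.37 in titled tooth germ and 7.38, 7.37 and 7.37 in titled oral tissue (log2 difference -0.042, SE 0.049).

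Abca7, a close relative of Abca1, was brighter, at 8.16, 7.88 and 8.13 in titled tooth germ and 8.16, 8.03 and 8.17 in titled oral tissue. Litter 2 had the lowest reading in both tissues, and the groups overlapped. The log2 difference was -0.062 (SE 0.086) at this probe and 0.064 and 0.065 at its 2 dimmer probes. Its direction was thus not the same at all probes.

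**Figure D2:**
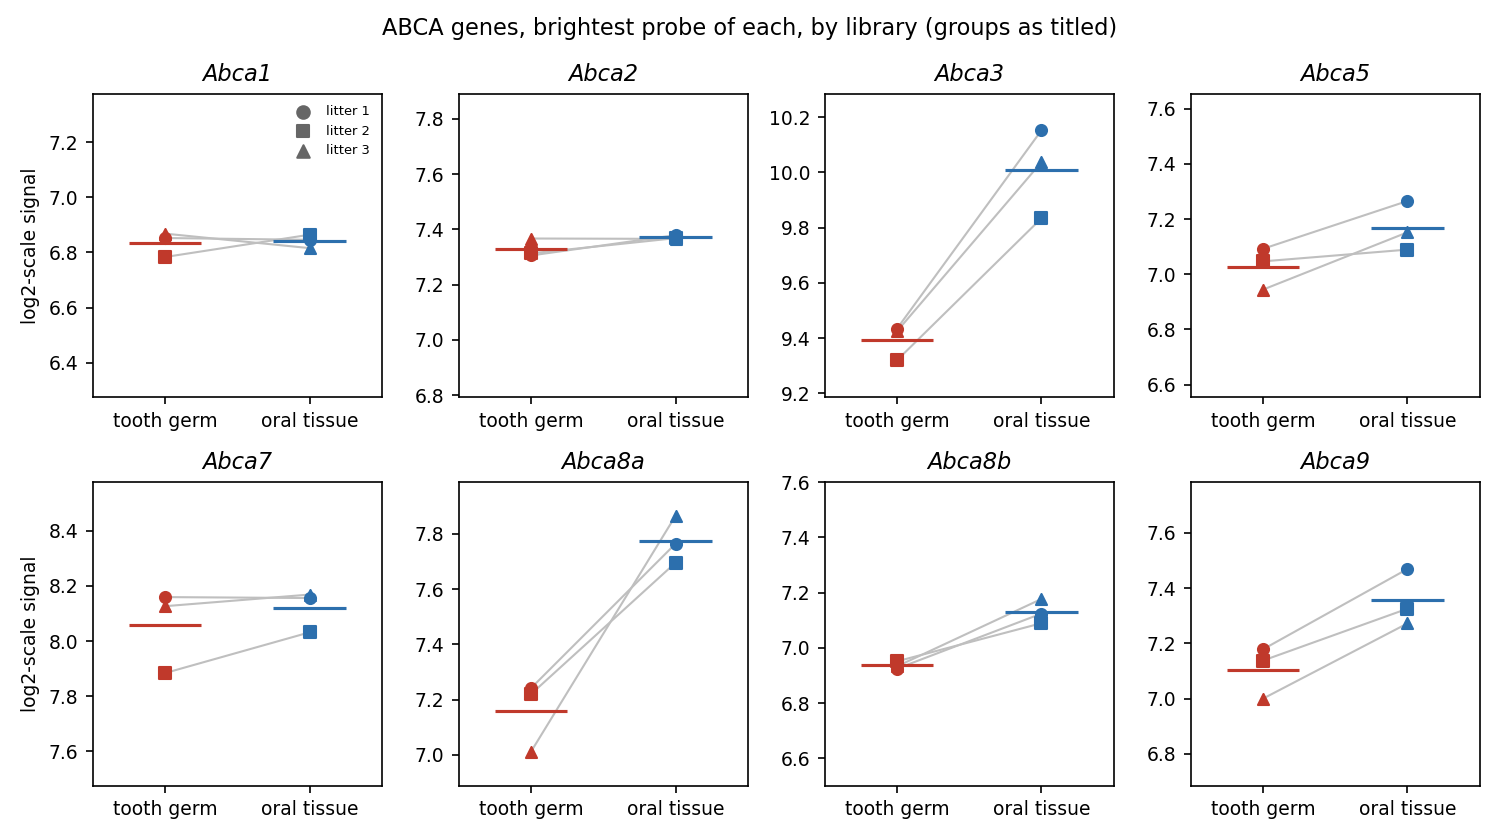
Log2-scale signal (y axis) of the brightest probe of each Abca member in the 3 libraries titled tooth germ (red, left) and the 3 titled oral tissue (blue, right). Symbols mark the litter, grey lines join libraries of 1 litter, and horizontal bars are group means. All panels span the same range of 1.1 log2 units. Abca3, Abca8a, Abca8b and Abca9 have no overlap between the groups.

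Of the 8 members 4 had groups that did not overlap, all of them lower in titled tooth germ. Over all genes 11.2% were lower without overlap and 23.1% did not overlap in either direction. The sign was the same in all 3 litters for 5 of 8 members, which are those 4 and Abca5. The array held 18 probes of the members and 25 of the other ABCA genes. Whether a probe of 1 of these related genes also binds the RNA of another was not tested.

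**Figure D3:**
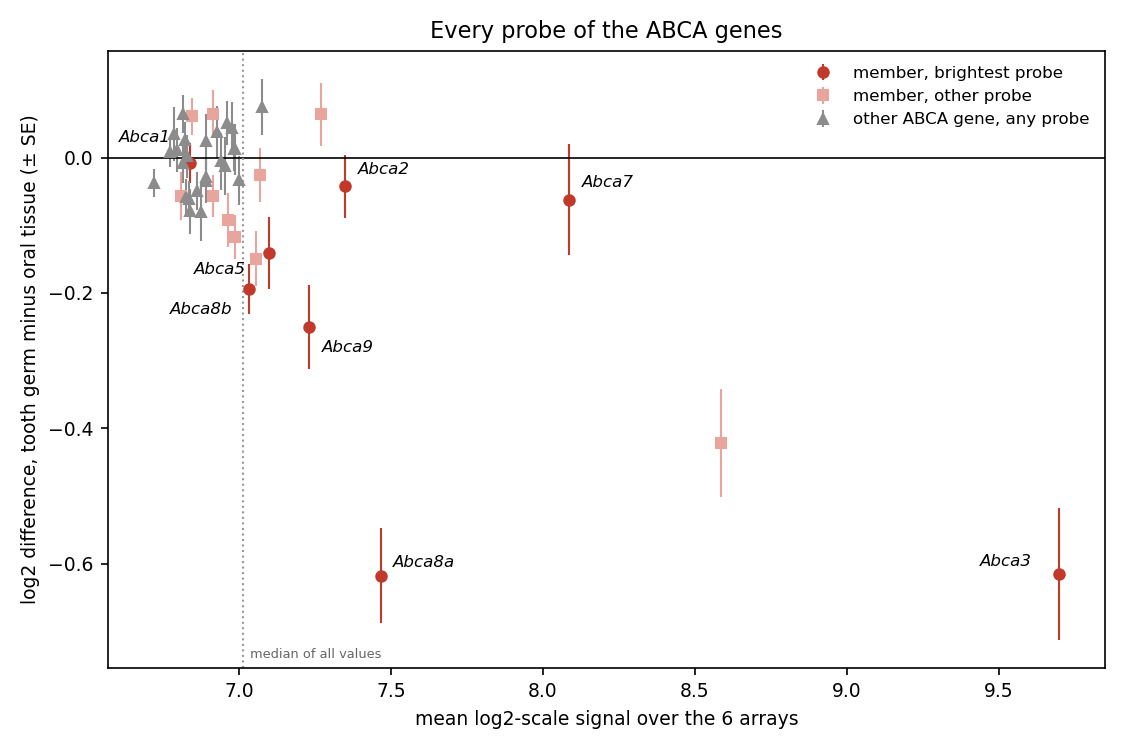
Mean log2-scale signal over the 6 arrays (x axis) against the log2 difference, titled tooth germ minus titled oral tissue (y axis), for each ABCA probe. Error bars are moderated standard errors from a limma fit over all probes with 1 gene symbol. They differ slightly from the errors of the brightest probes in the text. Circles are the brightest probes of the 8 members, squares their other probes and triangles the probes of other ABCA genes. The brightest probes of Abca3 and Abca8a stand at -0.62, the second Abca3 probe at -0.42, and the probes of other ABCA genes gather around 0.

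The 8 remaining ABCA genes are those that the choice of members left out, so their results are shaped by that choice and are no independent comparison. They include Abca4, the retinoid pump of photoreceptors, Abca12, which loads lipid into the granules of keratinocytes, Abca13, and Abca14 to Abca17, which in mouse are known mainly from testis. By limma 0 of 8 passed an adjusted p of 0.05, also with the litter as a block, and 1 had an unadjusted p under 0.05. That gene was Abca13, with 6.79, 6.85 and 6.75 in titled tooth germ and 6.93, 6.87 and 6.83 in titled oral tissue (log2 difference -0.080, SE 0.034, adjusted p = 0.244). Differences ran between -0.080 in Abca16 and 0.075 in Abca15, with 0.051 in Abca14, 0.013 in Abca12, 0.013 in Abca4 and -0.033 in Abca17, and their median was 0.013. Of these 8 genes 7 were dimmer than the array median, against 1 of the 8 members, and a difference in them may not have been detectable.

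In the other ABC families, which hold peptide, drug and lipid pumps as well as channels, 0 of 34 genes passed by limma, and 4 had an unadjusted p under 0.05 (median log2 difference 0.0015). Abcc9, a subunit of potassium channels in vascular muscle, came closest. It read 7.17, 7.19 and 7.11 in titled tooth germ and 7.44, 7.24 and 7.63 in titled oral tissue (log2 difference -0.28, SE 0.082, adjusted p = 0.0763). With the litter as a block it passed (adjusted p = 0.0350), as it did without oral tissue library 2, where the difference was -0.38 (adjusted p = 0.0057). Abcg1, which exports cholesterol alongside Abca1, differed by 0.032 (adjusted p = 0.767).

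Lists of other lipid genes follow, chosen with earlier results of these data known. Most of their genes did not pass the test. Beside their counts, 3.42% of all genes passed and were lower, and 2.39% passed and were higher. Of 14 apolipoprotein and lipoprotein receptor genes 3 fell, 0 rose (1 with the litter as a block) and 11 did not pass (median -0.047). Lpl, the lipase that frees fatty acids from lipoproteins, read 9.89, 9.69 and 9.83 in titled tooth germ and 10.75, 10.65 and 10.81 in titled oral tissue, a log2 difference of -0.93 (SE 0.085, limma adjusted p = 5.4e-05). Apoe, a lipid acceptor for ABCA pumps made by macrophages and glia, fell by 0.48 (SE 0.10, adjusted p = 0.0187) and Apoc1 fell by 0.39 (SE 0.060, adjusted p = 0.0020). Apoe did not pass without tooth germ library 1 or 2 or oral tissue library 1 or 3 (adjusted p = 0.0852, 0.0757, 0.0511 and 0.0683), nor without the mean-variance trend (adjusted p = 0.0594). Apoa1, which encodes the classical acceptor for Abca1, differed by 0.018 (adjusted p = 0.907).

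Among 17 genes of sterol-sensing nuclear receptors and their targets, 3 fell, 0 rose and 14 did not pass (median 0.032, 11 positive, 6 negative). These 3 were Rxrg, a retinoid X receptor that is also expressed in developing muscle (log2 difference -0.97, SE 0.086, adjusted p = 4.5e-05), Ch25h, which makes the oxysterol 25-hydroxycholesterol (-0.62, SE 0.098, adjusted p = 0.0024), and Cyp27a1, a sterol hydroxylase (-0.34, SE 0.049, adjusted p = 0.0015). Ch25h read 7.70, 7.70 and 7.70 in titled tooth germ and 8.07, 8.47 and 8.41 in titled oral tissue, well apart. The liver X receptor gene Nr1h3 and the liver X receptor target Mylip differed by 0.018 and 0.023 and did not pass (adjusted p = 0.907 and 0.815).

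Of 15 genes of lysosomal and intracellular lipid handling 2 fell, 0 rose and 13 did not pass (median -0.061). With the litter as a block 3 fell. Cav1, the coat protein of caveolae, fell by 0.68 (SE 0.091, adjusted p = 7.8e-04). Npc1, which carries cholesterol out of lysosomes, read 10.34, 10.08 and 10.19 in titled tooth germ and 10.66, 10.53 and 10.55 in titled oral tissue (log2 difference -0.38, SE 0.087, adjusted p = 0.0254). It did not pass without tooth germ library 2 or 3 or oral tissue library 1 or 3 (adjusted p = 0.0947, 0.0631, 0.105 and 0.0685), nor as the mean of its probes (-0.12, adjusted p = 0.184). None of the 9 genes of lamellar bodies and surfactant, the system that Abca3 serves in lung, passed by limma, with or without the litter as a block, and 0 had an unadjusted p under 0.05. Ctsh, a protease of surfactant processing, had the widest difference there (-0.19, adjusted p = 0.353), and 7 of the 9 were dimmer than the array median.

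**Figure D4:**
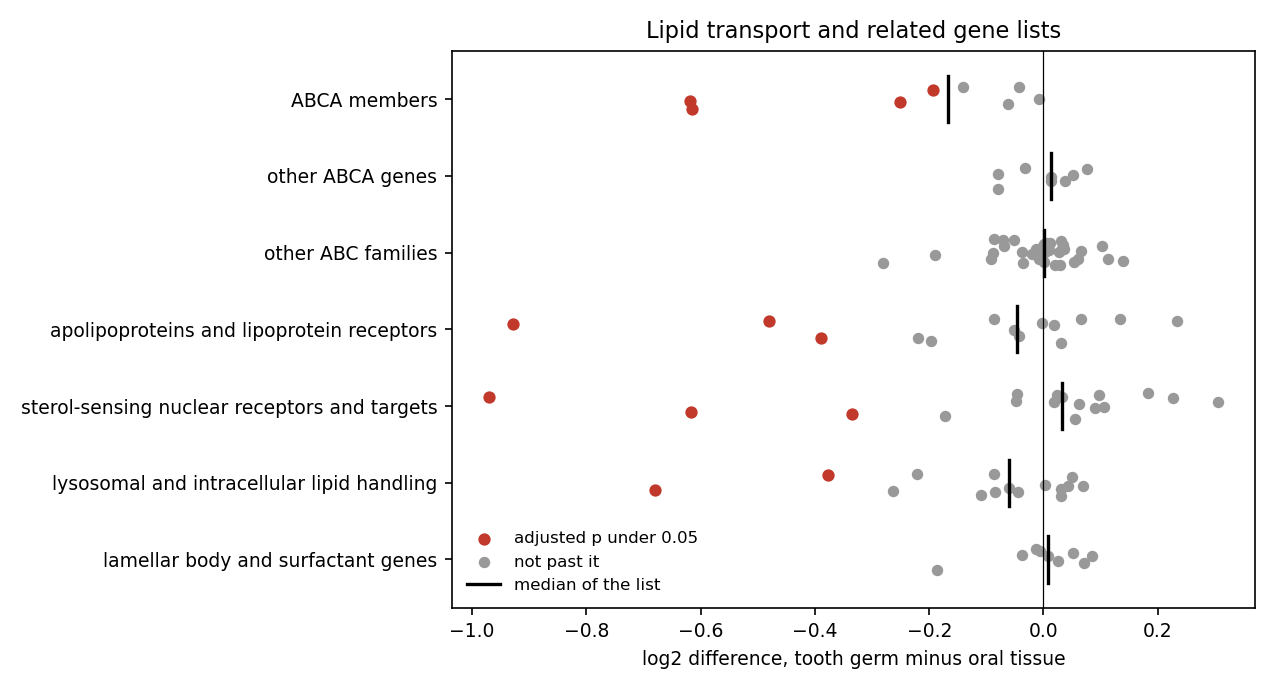
Log2 difference, titled tooth germ minus titled oral tissue (x axis), of the 8 members and of 6 lists of related genes (rows). Red points are past an adjusted p of 0.05 in the limma fit over all genes, grey points are not, and black bars are list medians. Red points lie on the negative side in each list that has any. The first row was chosen on these values, and its points are a description.

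Markers of other cell types differed between the same libraries. In bulk tissue, fewer cells of a type and less RNA per cell cannot be told apart. By limma, connective tissue fibroblast markers fell in 6 of 10 cases (8 with the litter as a block) and rose in 0, with a mean log2-scale level over the list of 9.55 to 9.65 in titled tooth germ libraries and 10.12 to 10.23 in titled oral libraries. Dpt, a dermal matrix gene, fell by 1.30 (adjusted p = 6.7e-05). Macrophage markers fell in 7 of 10 cases and rose in 0, at 7.77 to 7.84 in titled tooth germ and 8.01 to 8.21 in titled oral tissue, with C1qc at -0.62 (adjusted p = 0.0024). The macrophage count was 3 without tooth germ library 1 or 2, and 4 without tooth germ library 3 or oral tissue library 1 or 3, as also with the mean of all probes and without the trend. Skeletal muscle markers fell in 9 of 10 cases, at 8.85 to 9.06 in titled tooth germ and 10.26 to 10.91 in titled oral tissue, with Actc1 at -2.52 (adjusted p = 3.7e-05). Of 7 neuronal markers 3 fell (5 without oral tissue library 2, 4 with the litter as a block), led by Isl1 (-1.45, adjusted p = 0.0073, but 0.0697 without the trend and 0.201 with robust shrinkage), at 7.40 to 7.55 in titled tooth germ and 7.96 to 8.55 in titled oral tissue. These lists moved the same way as Abca3, Abca8a, Abca8b and Abca9, and as Apoe, Apoc1 and Lpl, and their part in those differences was not tested.

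Endothelial markers fell in 1 of 8 cases (2 with the litter as a block), at 9.06 to 9.08 in titled tooth germ and 9.14 to 9.33 in titled oral tissue. That 1 was Tek (-0.33, adjusted p = 0.0268), which did not pass without any 1 of the tooth germ libraries or without oral tissue library 2 or 3 (adjusted p = 0.0526 to 0.119). Of 6 perivascular markers Acta2 fell (-1.49, adjusted p = 1.6e-05) and Rgs5 rose (1.12, adjusted p = 5.5e-04). With the litter as a block or without oral tissue library 2, 2 fell. The second was Abcc9, the same gene as in the other ABC families above. Of 5 glial markers Sox10 fell (-1.19, adjusted p = 0.0012). By limma 0 of 5 erythroid and 0 of 5 osteoblast markers passed, also with the litter as a block, with 0 and 1 at an unadjusted p under 0.05, and 1 osteoblast marker rose without oral tissue library 2. Slc4a1 and Alpl, the widest of each list, differed by -0.16 and 0.58.

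Markers of the tooth germ ran the other way. Of 7 dental epithelium markers 5 rose and 0 fell, with Tfap2b at 1.82 (adjusted p = 4.6e-06), and of 9 dental mesenchyme markers 5 rose (4 to 7 without 1 library, 7 without oral tissue library 2 and with the litter as a block) and 0 fell, with Inhba at 1.98 (adjusted p = 1.8e-05). Of 10 surface epithelium markers 6 rose and 1 fell, with Krt17 at 2.05 (adjusted p = 1.7e-05). Of these 4 rose without the trend, with robust shrinkage, or without tooth germ library 2 or 3 or oral tissue library 1. The 1 that fell, Krt15 (-0.39, adjusted p = 0.0464), did not pass without any 1 of the tooth germ libraries or without oral tissue library 1 or 2. Msx1 and Shh, which check the tissue labels, were higher in the libraries titled tooth germ, at 12.67, 12.66 and 12.36 against 10.78, 11.41 and 11.09 in titled oral tissue for Msx1, and at 7.62, 7.90 and 8.18 against 7.30, 7.01 and 7.04 in titled oral tissue for Shh. Pearson's r over all probes was 0.995 to 0.997 within a tissue and 0.988 to 0.993 across tissues, and no library stood apart.

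The genes whose profile was most like a member's were sought for Abca8a alone, the member with the widest difference in the fit. Its lead over Abca3 (-0.618 against -0.616) was far smaller than their standard errors. The order turned without tooth germ library 3 (-0.54 against -0.63) and without oral tissue library 2 (-0.66 against -0.70) or 3 (-0.57 against -0.60). It also turned with array weights. Over the 6 arrays, among 9527 genes above the median level, the 5 with the highest Pearson r were Qk, Ccdc80, Ginm1, Stc1 and Tgfbr3, all with r between 0.993 and 0.994. Qk encodes an RNA-binding protein, Ccdc80 a secreted matrix protein, Ginm1 a membrane glycoprotein, Stc1 a secreted glycoprotein hormone and Tgfbr3 a co-receptor for TGF-beta. Ccdc80 read 8.70, 8.69 and 8.53 in titled tooth germ and 9.50, 9.38 and 9.66 in titled oral tissue, in which, as in Abca8a, tooth germ library 3 was the lowest and oral library 3 the highest. Stc1 differed by -0.99, Tgfbr3 by -0.72, Ginm1 by -0.34 and Qk by -0.19 on the log2 scale. The 6 points share their arrays and form 2 groups, so r is a description and mainly carries the difference between the tissues.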

How the data were processed

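Gene expression was measured on 6 single-colour Illumina bead arrays. The authors deposited log2-scale signals per probe, made with lumi 2.8.0 per the submitters' processing notes. No transformation or background correction is named in the sources used here. The 6 sorted columns differed by at most 0.000827, so the deposited values had been quantile normalized, and they were used as they are. Differences of dim probes may be understated.

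Of 45281 probes 34885 had 1 gene symbol in the platform annotation. The brightest probe was kept for each of 19057 genes. Titled tooth germ was compared with titled oral tissue by limma 3.58.1 in R 4.3.3 (lmFit, then eBayes with trend, 4 residual degrees of freedom), with Benjamini-Hochberg adjustment over all genes and a threshold of 0.05. The fit was also run on simulated data with independent noise, no litter effect, and differences added only to genes above the median level. That run does not cover differences in dim genes or shared litter effects. Values are mean ± SD over 3 libraries, and errors of differences are moderated standard errors. For probes other than the brightest, and in the figure of all ABCA probes, these come from the same fit over the 34885 probes. The number of arrays limits the precision.

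Libraries of 1 number share a litter per the labels. Deviations from the group means over 9528 genes correlated at 0.413, 0.233 and 0.266 in the 3 pairs. The litter numbers were treated as pairs for the differences within litters and with the litter as a block. Standard errors and adjusted p-values come from the fit that ignores the pairing, unless the block is named. Alternatives were the litter as a block, other normalization, probe choice and variance settings, and leaving out each library.

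The members and gene lists were chosen with earlier results of these data known. Named genes are all ABCA genes, the 3 largest passing genes of each related list (or the smallest p), the widest gene of each marker list, Msx1, Shh and the 5 genes most like Abca8a. Apoa1, Abcg1, Nr1h3, Mylip, Rgs5 and Krt15 were added after their values were seen. Of the listed genes 17 had no probe matched to them and were not analysed here. Promoters are RefSeq's, GRCm38.p6.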

Additional observations from a re-analysis of the deposited data

How the results depend on the processing

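The 4 members past the threshold were the same 4 with the litter as a block, with quantile normalization repeated, with each array centred on its median, without dim probes and with robust shrinkage. Repeated normalization and centring could hardly change a call, since the deposited columns already had nearly the same distribution. Leaving out dim probes kept the brightest probe of each of these 4, so their differences stayed the same. Abca3, Abca8a and Abca8b were past it under each of the 14 alternatives, and Abca9 in 6 of 14. Leaving out 1 library at a time left 3 to 4 members. Of 121 recomputed member differences 108 moved by less than the spread between replicates. Many of these could not move, so that count is no measure of stability. The litter as a block, the trend and robust shrinkage change the errors and not the differences. Repeated normalization and centring also left each member difference as it was. The sign turned in 7. These were the dimmest Abca9 probe at 0.061, Abca7 with the mean of all probes (0.022), without tooth germ library 2 (0.024) and at its 2 other probes (0.064 and 0.065), and Abca1 without tooth germ library 2 (0.018) or oral tissue library 2 (0.0039). The count over all genes was 1107, against 1693 with the litter as a block and 734 to 1025 without 1 library, lowest without tooth germ library 2. Of the other ABC families 1 gene passed with the litter as a block, and 0 to 1 without 1 library. Of the lysosomal list 1 gene passed with the mean of all probes and 1 to 2 without 1 library. The causes were not tested. The litter as a block changed no call of a member. Background correction and slides could not be varied from the deposited table.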
